A study of Mus musculus with 9 samples.

Results

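The genes of prostaglandin and leukotriene synthesis were examined in the RNA sequencing of RAW 264.7 cells, a mouse macrophage line in which RANKL drives differentiation towards osteoclasts. The members were 10 genes chosen by symbol for their place in the pathway, with earlier results of these data known. Out of 23282 gene rows listed for each library, they were Pla2g4a, Ptgs1, Ptgs2, Ptges, Ptges2, Ptges3, Alox5, Alox5ap, Lta4h and Ltc4s. Each had a single row. The 9 libraries fell into 3 groups of 3. Cells of the negative control were treated with RANKL alone (50 ng/mL). Surface protein-treated cells received RANKL and proteins extracted from the surface of Propionibacterium freudenreichii MJ2 (10 µg/mL), a dairy bacterium. The group of heat-killed MJ2 received killed whole cells of the same strain (10000000 cells/mL). Whether RANKL was added to these cells as well is not spelled out for the single libraries. All cultures were at passage 30 and were treated for 4 days, and no library of untreated cells was analysed here. RAW 264.7 is 1 transformed line of BALB/c origin, and nothing in the labels says that the replicates were separate cultures, so the p-values measure only the spread between these libraries, which may be technical.

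Eicosanoids are short-lived lipid mediators made from arachidonic acid. A phospholipase frees the fatty acid from membranes, cyclooxygenases turn it into prostaglandin H2, and terminal synthases convert that into prostaglandin E2 and the other prostanoids. In the other branch, 5-lipoxygenase, presented with arachidonate by its activating protein, makes leukotriene A4, which is either hydrolyzed to leukotriene B4, an attractant of neutrophils, or joined to glutathione to give leukotriene C4, the first of the cysteinyl leukotrienes. Macrophages carry both branches, and prostaglandin E2 is known in bone as a factor that acts on the formation of osteoclasts.

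The deposited values were log2 values that gave back adjusted reads, close to whole reads, when 1 was subtracted from 2 raised to the value. Adjusted reads came to between 5930926 and 6503682 per library. The macrophage markers were present at 10 or more adjusted reads in every library for 7 of 7 genes, with sums of 15399 to 16693 in the negative control, 18394 to 18876 with heat-killed MJ2 and 15885 to 17981 with surface proteins. Osteoclast markers, 10 genes including Acp5 and Ctsk, summed to 20914 to 33120 adjusted reads in the negative control, 13868 to 16029 with heat-killed MJ2 and 5262 to 7864 with surface proteins, so that the groups did not overlap. Of the macrophage markers, Adgre1, Itgam, Lyz2 and Fcgr3 were higher and Csf1r lower past the threshold given below with surface proteins, 5 of 7 in all, and 3 of 7 were higher with heat-killed MJ2. Of 9 osteoclast markers tested, 7 fell with surface proteins and 3 with heat-killed MJ2, where 17.5% and 4.26% of all genes tested were past the threshold in either direction. The part of these differences in the results on the members was not tested, and in bulk RNA fewer cells of a type and less RNA per cell cannot be told apart. Markers of mast cells, a cell type rich in Ltc4s and Hpgds, summed to at most 4.0 adjusted reads in any library, with Fcer1a, Cma1, Mcpt4 and Tpsb2 at 0 throughout.

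Among the members, the changes of greatest size were the rises of Ptgs2 and Ptges, the inducible pair of prostaglandin E2 synthesis, in both treated groups. Surface proteins also lowered Alox5, Ltc4s and Ptgs1 and raised Alox5ap. With heat-killed MJ2, Alox5ap rose as well. Ltc4s was lower there by a like size, -1.11 on the log2 scale against -1.13, at an adjusted p of 0.10 by limma. The Ptgs1 fall stayed past the threshold given next in 1 of 6 fits that left out a library. The Alox5ap rise with heat-killed MJ2 did so in 0 of 6. Genes were called past the threshold at an adjusted p under 0.05 in limma, with Benjamini-Hochberg adjustment over all genes tested, and a fold change of at least 2. In the comparison of surface proteins with the negative control 6 of 10 members were past the threshold, 3 higher and 3 lower, where 17.5% of all genes tested were (10.2% higher and 7.32% lower). With heat-killed MJ2 against the negative control, 3 of 10 members were higher and 0 lower past the threshold, where 4.26% of all genes tested were past it (3.37% higher and 0.897% lower). Between surface proteins and heat-killed MJ2 1 of 10 members was past the threshold, lower, where 10.1% of all genes tested were (5.08% higher and 4.97% lower). At an unadjusted p under 0.05 the members lower with heat-killed MJ2 came to 1, Ltc4s. These counts include genes that could pass the filter on low values only through the group in which they were high, namely Ptgs2 and Ptges through the treated groups and Ptgs1 through the negative control or heat-killed MJ2. The counts of members therefore cannot be read against the shares over all genes. All 10 members passed that filter in all 3 comparisons. Their median log2 fold change was 0.10 with surface proteins, against -0.01 for all genes, since rises and falls were mixed, and their median absolute log2 fold change was 1.28 against 0.46. With heat-killed MJ2 the median absolute value of the members was 0.20, against 0.27 for all genes.

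**Figure D1:**
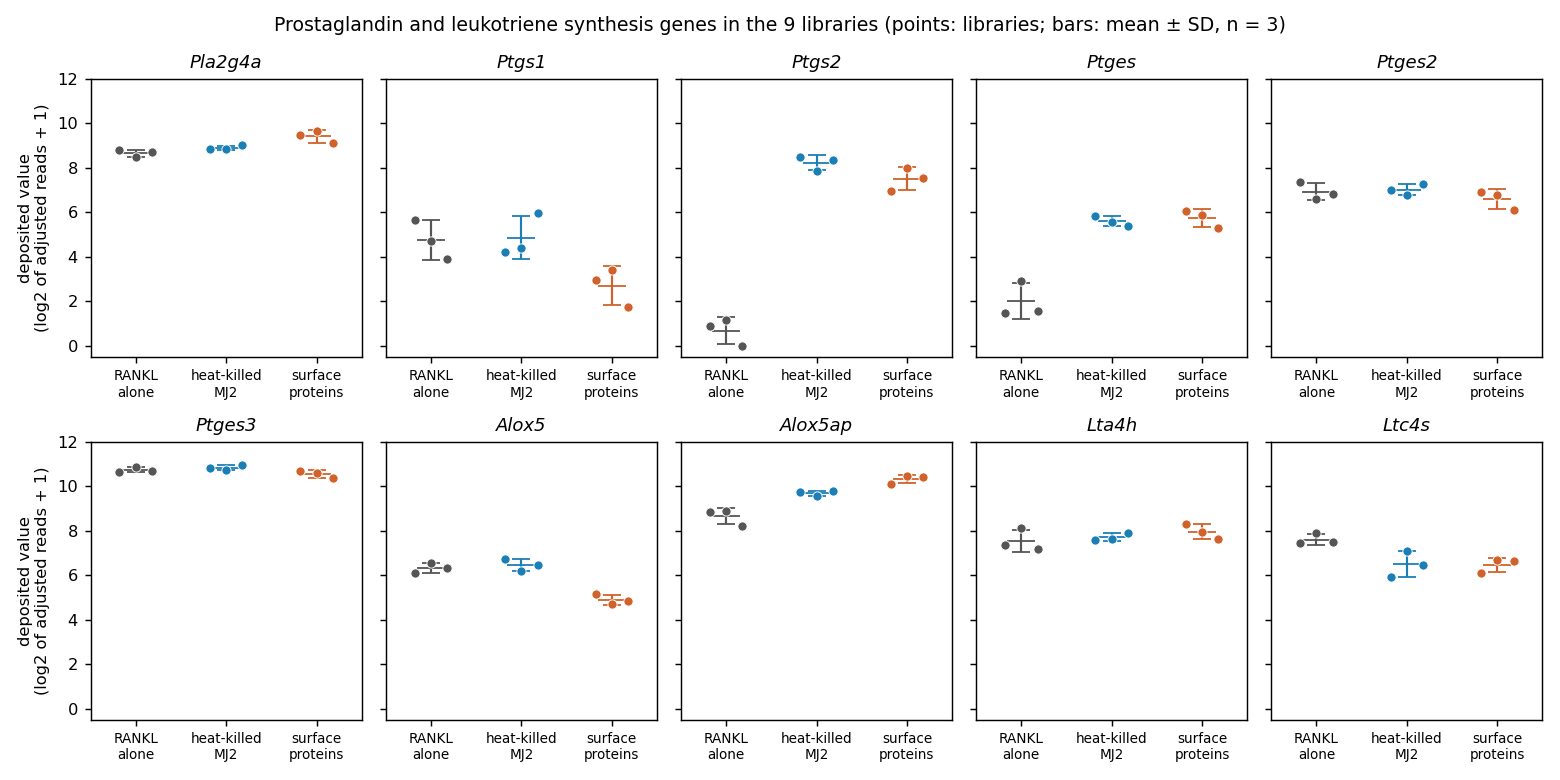
Deposited values (log2 of adjusted reads + 1, vertical axis) of the 10 members in the 3 libraries of each group (points), with the mean and SD (bars, n = 3). Ptgs2 lies between 0 and 1.13 in the negative control and at 6.96 or higher in all 6 treated libraries, whereas Ptges2 and Ptges3 overlap between the negative control and each treatment.

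Pla2g4a (chr1:149829618-149961290, minus strand, in GRCm38, the build of all positions given here) encodes cytosolic phospholipase A2 alpha, the enzyme that frees arachidonic acid from membranes on a calcium signal. Its adjusted reads were 438.6, 353.6 and 422.1 in the negative control, 452.2, 453.8 and 518.1 with heat-killed MJ2, and 714.6, 797.4 and 550.8 with surface proteins. The 3 groups did not overlap, and the order was negative control, heat-killed MJ2, surface proteins. The difference between surface proteins and the negative control was 0.75 ± 0.19 (SE) on the log2 scale, 1.68-fold, with an adjusted p of 0.0301 by limma, so it met the p limit but not the 2-fold limit. Heat-killed MJ2 differed from the negative control by 0.23 ± 0.15 (adjusted p = 0.407).

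Ptgs1 (chr2:36230426-36252272, plus strand) encodes cyclooxygenase-1, which most cells hold at a steady level. Adjusted reads were 49.9, 24.8 and 13.8 in the negative control, 17.4, 20.3 and 61.9 with heat-killed MJ2, and 6.82, 9.55 and 2.33 with surface proteins. All 3 surface protein libraries lay below every other library, while the other groups overlapped and each spread widely. Ptgs1 fell by 2.05 ± 0.58 on the log2 scale with surface proteins against the negative control, 4.14-fold lower (adjusted p = 0.043 by limma). This call was lost, at adjusted p of 0.0582 to 0.103, when any library was left out except replicate 3 of the negative control, without which the change was -2.48 (adjusted p = 0.0398). Against heat-killed MJ2 the difference was of like size, -2.16 ± 0.61, with an adjusted p of 0.0562. Heat-killed MJ2 differed from the negative control by 0.11 ± 0.62 (adjusted p = 0.936), with a 95% confidence interval of -1.38 to 1.61. Gm43621, a transcript model on the opposite strand that the annotation lists as still to be verified, shares 148 bases of exon with Ptgs1. The strand setting of the counting is not given in the sources used here, so reads from this transcript and from Ptgs1 cannot be told apart.

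Ptgs2 (chr1:150100031-150108227, plus strand) encodes cyclooxygenase-2, the inducible isoform that many inflammatory stimuli turn on in macrophages. The negative control held 0.848, 1.19 and 0 adjusted reads, which is 2 reads in all 3 libraries together. With heat-killed MJ2 the adjusted reads were 354.8, 227.3 and 324.8, and with surface proteins 123.3, 252.5 and 187.7. The gene was thus near absence with RANKL alone and well above it in each of the 6 treated libraries. The ratio of summed reads was 282 for surface proteins over the negative control, with an exact 95% counting interval of 77.7 to 2334, and 454 for heat-killed MJ2, with an interval of 125 to 3750. These intervals cover counting error only. By limma the log2 fold change was 6.83 ± 0.38 with surface proteins (adjusted p = 0.000287) and 7.55 ± 0.34 with heat-killed MJ2 (adjusted p = 0.000248), both on the scale of log2(adjusted reads + 1), which understates the change of a gene near 0. The treated groups overlapped, and their difference was -0.72 on the log2 scale (adjusted p = 0.153), with a 95% confidence interval of -1.46 to 0.03.

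The promoters of 3 members are printed: those of Ptgs2 and Ptges, which rose in both treatments, and that of Alox5, which fell with surface proteins and differed between the treatments. Each is the 250 bases upstream of the transcription start in RefSeq (GRCm38.p6), written 5′ to 3′ on the strand of the gene. Capitals mark every match, on either strand, to a short NF-kB motif (GGGNNNNNCC), a C/EBP motif (TTNNGNAA) or a GC box (GGGCGG).
Ptgs2, chr1:150099781-150100030: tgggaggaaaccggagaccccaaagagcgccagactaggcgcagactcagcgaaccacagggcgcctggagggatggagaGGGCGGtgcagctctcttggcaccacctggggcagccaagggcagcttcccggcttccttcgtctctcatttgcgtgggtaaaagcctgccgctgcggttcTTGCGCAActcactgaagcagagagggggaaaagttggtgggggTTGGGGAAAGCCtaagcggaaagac
Ptges, chr2:30903298-30903547: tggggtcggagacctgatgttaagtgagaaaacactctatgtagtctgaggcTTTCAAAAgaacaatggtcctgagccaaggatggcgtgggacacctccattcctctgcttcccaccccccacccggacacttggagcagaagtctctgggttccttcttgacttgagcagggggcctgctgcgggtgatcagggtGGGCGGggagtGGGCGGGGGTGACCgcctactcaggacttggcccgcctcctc
Alox5, chr6:116461179-116461428: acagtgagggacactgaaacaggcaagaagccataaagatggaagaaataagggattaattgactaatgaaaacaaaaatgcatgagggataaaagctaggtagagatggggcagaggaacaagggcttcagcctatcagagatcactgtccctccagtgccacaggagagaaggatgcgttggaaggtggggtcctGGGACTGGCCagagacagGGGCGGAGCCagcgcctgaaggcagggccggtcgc
Counted back from the start, the Ptgs2 window held an NF-kB match that began 23 bases upstream, C/EBP matches at 69 and 25 bases and a GC box at 170 bases. The Ptges window, which lies inside the longer span annotated for the gene, held an NF-kB match at 38 bases, a C/EBP match at 198 bases on the other strand and GC boxes at 53 and 42 bases. In the Alox5 window NF-kB matches began at 53 and 35 bases, the latter sharing its first base with a GC box, and no C/EBP match was present. Matches to different motifs overlap where capitals run on. Of 9 members with a window, 5 held the NF-kB letters, 4 the C/EBP letters and 4 the GC box, whereas 45.8%, 36.8% and 32.7% of all 32851 windows of the same length did. Ptgs1 and Ltc4s, which fell with surface proteins, held none of them. Ptges3 and Lta4h, past the threshold in no comparison, held the NF-kB letters, and Alox5ap, which rose, had no window. These matches describe letters only and do not show binding.

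Ptges (chr2:30889471-30929863, minus strand) encodes microsomal prostaglandin E synthase-1, the inducible enzyme that works downstream of cyclooxygenase-2. Its adjusted reads were 1.79, 6.58 and 1.96 in the negative control, 56.2, 45.5 and 41.2 with heat-killed MJ2, and 64.6, 57.6 and 38.4 with surface proteins. As for Ptgs2, the negative control was far below both treated groups, which overlapped. Ptges rose by 3.75 ± 0.43 on the log2 scale with surface proteins, 13.4-fold (adjusted p = 0.00248), and by 3.60 ± 0.40 with heat-killed MJ2, 12.2-fold (adjusted p = 0.00826 by limma). The difference between the treatments was 0.14 ± 0.24 (adjusted p = 0.698), with a 95% confidence interval of -0.43 to 0.72. Leaving out each library in turn kept both calls against the negative control for Ptgs2 and for Ptges.

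The other prostaglandin E synthases were not past the threshold in any comparison. Ptges2 (chr2:32395896-32405772, plus strand) encodes microsomal prostaglandin E synthase-2, and its adjusted reads ranged from 97.1 to 161.4 in the negative control, from 109.3 to 153.0 with heat-killed MJ2 and from 67.1 to 119.4 with surface proteins. The log2 difference from the negative control was -0.35 ± 0.29 with surface proteins (adjusted p = 0.409) and 0.08 ± 0.24 with heat-killed MJ2 (adjusted p = 0.875). Ptges3 (chr10:128058954-128077272, plus strand) encodes the cytosolic synthase, also known as p23, a co-chaperone of Hsp90. It ranged from 1620 to 1876 adjusted reads in the negative control, from 1718 to 2022 with heat-killed MJ2 and from 1309 to 1662.5 with surface proteins, and differed from the negative control by -0.20 ± 0.16 (adjusted p = 0.380) and 0.10 ± 0.14 (adjusted p = 0.716). For surface proteins the 95% confidence interval of Ptges3 was -0.57 to 0.18, so a change of 2-fold in either direction lay outside it. A processed pseudogene of Ptges3, Ptges3-ps, is annotated on chromosome 6, and how reads shared between such copies were counted is not given in the sources used here.

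**Figure D2:**
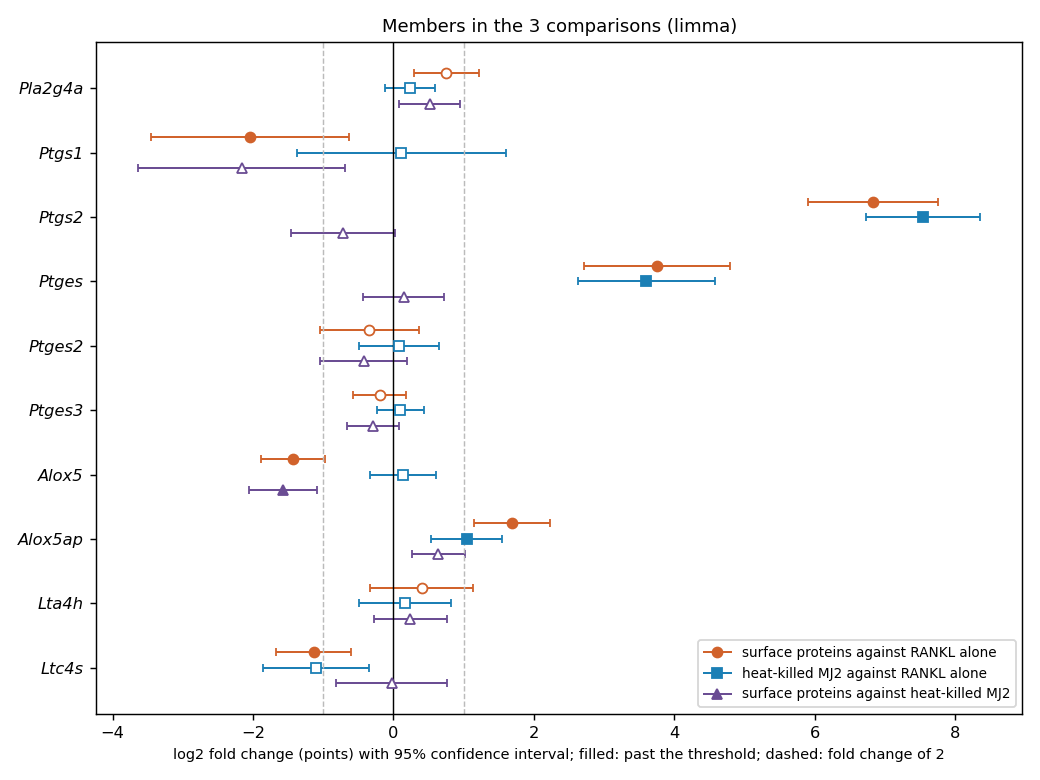
Log2 fold changes by limma (horizontal axis) of the 10 members in the 3 comparisons, with 95% confidence intervals. Filled symbols are past the threshold and dashed lines mark a fold change of 2. Ptgs2 and Ptges stand apart on the right in both comparisons with RANKL alone, while Alox5 lies to the left in both comparisons that involve surface proteins.

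Alox5 (chr6:116410077-116461178, minus strand) encodes 5-lipoxygenase, the enzyme that starts leukotriene synthesis. Adjusted reads were 67.5, 91.5 and 80.1 in the negative control, 105.3, 72.6 and 86.4 with heat-killed MJ2, and 34.2, 24.9 and 27.6 with surface proteins. The surface protein libraries were all below the other 6, which overlapped. Alox5 fell by 1.43 ± 0.19 on the log2 scale with surface proteins against the negative control, 2.70-fold lower (adjusted p = 0.00379), and by 1.57 ± 0.20 against heat-killed MJ2, 2.97-fold lower (adjusted p = 0.0098 by limma). Both calls held when any library was left out. Heat-killed MJ2 differed from the negative control by 0.14 ± 0.20 (adjusted p = 0.724), with a 95% confidence interval of -0.34 to 0.61. Alox5 was the only member for which the difference between the 2 treatments was past the threshold, although Ptgs1 joined it under 4 alternative settings.

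Alox5ap (chr5:149264767-149288153, plus strand) encodes the 5-lipoxygenase-activating protein, FLAP, which presents arachidonate to the enzyme. It moved the other way. Adjusted reads were 459.2, 466.9 and 300.5 in the negative control, 851.2, 759.6 and 877.0 with heat-killed MJ2, and 1108, 1415 and 1373 with surface proteins, and the 3 groups did not overlap. The rise was 1.69 ± 0.22 on the log2 scale with surface proteins, 3.22-fold (adjusted p = 0.00386), and 1.04 ± 0.21 with heat-killed MJ2, 2.06-fold (adjusted p = 0.0419 by limma). The first call held when any library was left out. The second was lost without any 1 of the 6 libraries, at adjusted p between 0.0635 and 0.133, and also with the replicate numbers as a block (adjusted p = 0.104). Surface protein-treated cells were above those with heat-killed MJ2 by 0.64 ± 0.16, 1.56-fold, which met the p limit (adjusted p = 0.0383) but not the 2-fold limit. An antisense gene, Gm19719, shares 107 bases of exon with Alox5ap.

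The members that use leukotriene A4 were Lta4h and Ltc4s. Lta4h (chr10:93453411-93484875, plus strand), the hydrolase that makes leukotriene B4, had adjusted reads of 165.0, 275.9 and 142.3 in the negative control, 190.3, 198.3 and 241.4 with heat-killed MJ2, and 317.0, 241.9 and 196.5 with surface proteins. All groups overlapped, and the log2 differences from the negative control were 0.40 ± 0.30 with surface proteins (adjusted p = 0.357) and 0.16 ± 0.27 with heat-killed MJ2 (adjusted p = 0.766).

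Ltc4s (chr11:50236461-50238616, minus strand) encodes leukotriene C4 synthase, the step that commits leukotriene A4 to the cysteinyl leukotrienes. Its adjusted reads were 172.5, 234.7 and 178.9 in the negative control, 60.4, 136.4 and 86.3 with heat-killed MJ2, and 67.5, 100.8 and 98.9 with surface proteins. Both treated groups lay below the negative control without overlap, and overlapped each other. Ltc4s fell by 1.13 ± 0.22 on the log2 scale with surface proteins, 2.19-fold lower (adjusted p = 0.0132 by limma). The size dropped just under the 2-fold limit without the second negative control library (-0.995) and without the first surface protein library (-0.948). With heat-killed MJ2 the difference was of like size, -1.11 ± 0.31, but its adjusted p was 0.10, so it was not past the threshold. The difference between the treatments was -0.03 ± 0.33 (adjusted p = 0.963), with a 95% confidence interval of -0.82 to 0.77. An antisense gene, Gm26542, shares 186 bases of exon with Ltc4s.

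Counting groups rather than calls, 7 of 10 members did not overlap between surface proteins and the negative control, where 48.4% of all genes tested did not. For heat-killed MJ2 against the negative control the count was 5, where 30.2% of all genes tested did not overlap, and for surface proteins against heat-killed MJ2 it was 5, where 42.3% did not. These counts include members that passed the filter on low values only through the group in which they were high, among Ptgs2, Ptges and Ptgs1. They therefore cannot be read against the shares over all genes.

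Ratios between successive or alternative enzymes were also taken within each library, as differences of deposited log2 values. For Ptgs2 and Ptges in the negative control, close to 0 adjusted reads, the constant of 1 in the log largely sets them. They were chosen after the values of the members were seen and are given without a test, and the levels behind them are not comparable between genes. Shifts of the ratios with Ptgs2 and Ptges away from the negative control also carry the constant and are not comparable in size with the other shifts. The log2 ratio of Ptgs2 to Ptgs1 was -4.08 ± 0.63 (SD, n = 3) in the negative control, 3.36 ± 0.95 with heat-killed MJ2 and 4.80 ± 0.94 with surface proteins. The 3 control libraries lay below all 6 treated ones, and the treated groups overlapped. The ratio of Ptges to Ptges2 moved from -4.94 ± 1.12 to -1.42 ± 0.39 and -0.85 ± 0.05. That of Alox5ap to Alox5 went from 2.33 ± 0.43 in the negative control to 3.23 ± 0.20 with heat-killed MJ2 and 5.45 ± 0.42 with surface proteins, so that no library of any group overlapped another group. For Lta4h over Ltc4s, the branch point of leukotriene A4, the values were -0.05 ± 0.28, 1.22 ± 0.59 and 1.48 ± 0.65. The treated groups overlapped each other in this ratio but not the negative control.

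**Figure D3:**
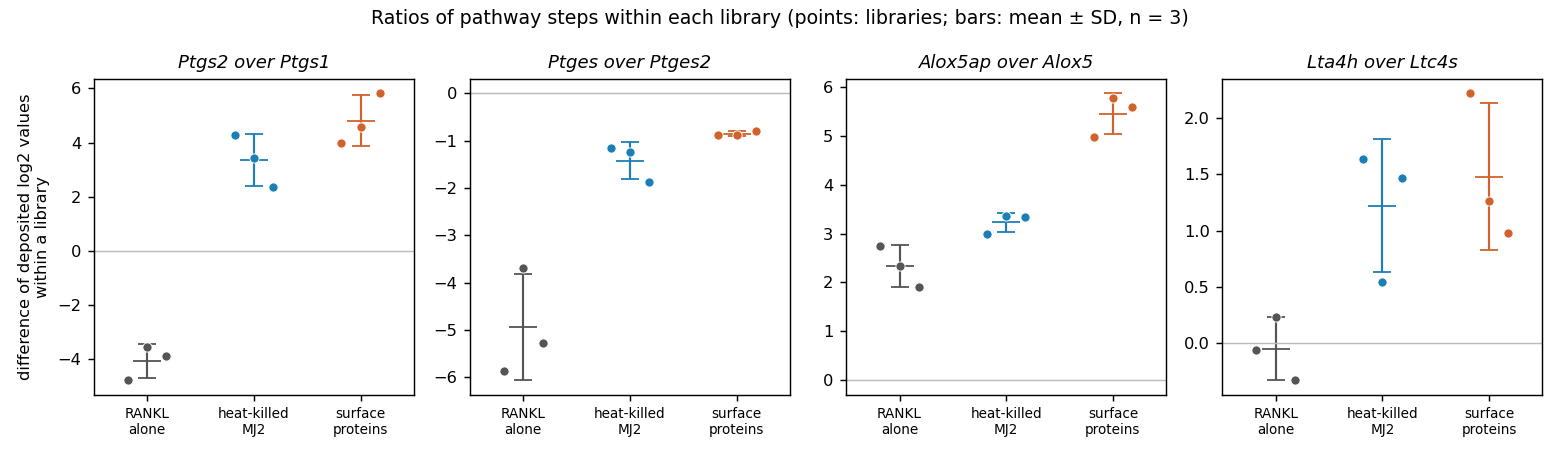
Differences of deposited log2 values between 2 members within each library (vertical axis), by group (points are libraries, bars are mean and SD, n = 3). For Ptgs2 over Ptgs1 the libraries with RANKL alone, at -4.78 to -3.56, lie below all treated ones, and the 3 groups are separated for Alox5ap over Alox5, at 1.90 to 2.75, 3.00 to 3.37 and 4.98 to 5.77.

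The genes whose pattern over the 9 libraries was closest to each member past a threshold were found among 11192 genes by the root mean square difference of centred log2 values (in log2 units, in brackets). For Alox5ap they were B4galt6 (0.132) and Stom (0.173), and for Alox5 they were Hmgb3 (0.159) and Nup85 (0.166). Ltc4s was followed most closely by Slc43a2 (0.260) and B230312C02Rik (0.268). Matches were looser for Ptges, with C330022C24Rik (0.396) and Klra2 (0.410), for Ptgs1, with Gm20554 (0.418) and Xrcc2 (0.494), and for Ptgs2, with Urah (0.622) and Irg1 (0.630). Irg1, the enzyme that makes itaconate in activated macrophages, ranged from 10.9 to 29.9 adjusted reads in the negative control, from 2012 to 2197 with heat-killed MJ2 and from 895 to 962 with surface proteins.

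Around the members, 79 further genes of the pathway were listed in the table, of which 51 could be tested in at least 1 comparison and 12 were listed at 0 in all 9 libraries. With surface proteins against the negative control, 14 of 48 tested were past the threshold, 9 higher and 5 lower. With heat-killed MJ2 8 of 49 were, 7 higher and 1 lower, and between the treatments 8 of 48 were, 7 higher and 1 lower with surface proteins. Over all genes tested the shares were 17.5%, 4.26% and 10.1%. With surface proteins against the negative control, Fpr2, Ptger2, Ptgir, Dagla, Ptgds and Ptger4 passed the filter on low values only with the help of the group in which they were high. The same held for Fpr2, Ptger2, Ptgir and Ptgds, 4 of the 8 calls, with heat-killed MJ2 against the negative control, and for Dagla and Ptger4, 2 of the 8 calls, between the treatments, so these counts cannot be read against the shares over all genes. The median log2 fold change of the tested pathway genes was -0.04, 0.03 and -0.10 in the 3 comparisons, beside -0.01, 0.00 and 0.03 for all genes.

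**Figure D4:**
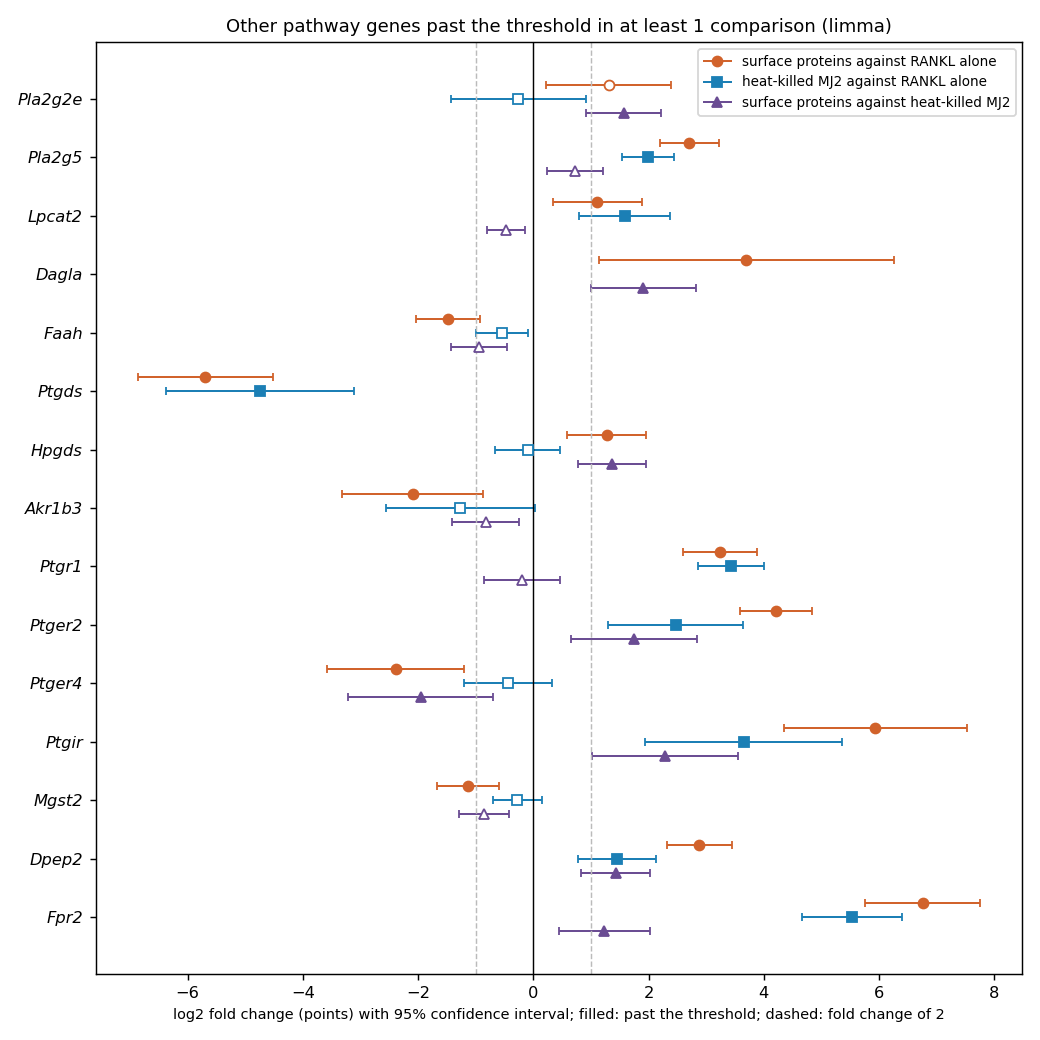
Log2 fold changes by limma with 95% confidence intervals (horizontal axis) of the 15 other pathway genes that were past the threshold in at least 1 of 3 comparisons; filled symbols are past the threshold, dashed lines mark a fold change of 2, and a comparison in which a gene did not pass the filter on low values is left blank. Fpr2 and Ptgir lie farthest to the right and Ptgds farthest to the left.

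Upstream of the cyclooxygenases, among 11 other phospholipases A2 in the table, Pla2g5, a secreted enzyme of macrophages, had 17.7, 19.5 and 13.8 adjusted reads with RANKL alone, 72.6, 78.4 and 59.8 with heat-killed MJ2 and 103.8, 147.0 and 102.0 with surface proteins. It rose 6.54-fold with surface proteins (adjusted p = 0.000816) and 3.97-fold with heat-killed MJ2 (adjusted p = 0.00413). Pla2g2e, another secreted phospholipase, was 2.96-fold higher with surface proteins than with heat-killed MJ2 (adjusted p = 0.0167). Against the negative control it was 2.47-fold higher with surface proteins, without overlap, at an adjusted p of 0.074, and it was past the threshold there with all 9 libraries in 1 fit (adjusted p = 0.0471), with a mean-variance trend (0.0467) and without negative control replicate 1 (0.0483). Of the 6 phospholipases of this list tested with surface proteins against the negative control, 5 were not past the threshold. Of 12 genes of arachidonate activation, re-esterification and endocannabinoid release, Lpcat2 rose with both treatments, by 1.11 and 1.58 on the log2 scale (adjusted p = 0.0442 and 0.0451). It was lost in 5 of 6 fits without a library in each comparison. Dagla, a diacylglycerol lipase that makes 2-arachidonoylglycerol, stood at 0, 14.0 and 0 adjusted reads with RANKL alone, 5.14, 5.77 and 13.7 with heat-killed MJ2 and 37.3, 34.7 and 22.9 with surface proteins (against RANKL alone, log2 fold change 3.70 ± 1.06, adjusted p = 0.0439, past the threshold in 1 of 6 fits without a library, that without negative control replicate 2, at 5.00). Faah, which breaks down anandamide, fell by 1.49 ± 0.23 with surface proteins (adjusted p = 0.00632).

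The synthases of prostaglandin D2, the sister product of prostaglandin E2, went in opposite directions. Ptgds, the lipocalin type, had 83.0, 76.0 and 22.7 adjusted reads with RANKL alone, 3.10, 0.925 and 0 with heat-killed MJ2, and 0, 0 and 0.106 with surface proteins. Counted against a floor of 3 reads in each library it was at least 20.2-fold lower with surface proteins. With heat-killed MJ2, where 4 reads were left of 182 in the negative control, the summed reads were 45.5-fold lower, with an exact 95% counting interval of 17.5 to 169. Both falls were past the threshold by limma (adjusted p = 0.000994 and 0.0169), the second in 2 of 6 fits without a library. Hpgds, the hematopoietic type, had 311.1, 500.1 and 328.2 adjusted reads with RANKL alone, 329.4, 416.9 and 305.1 with heat-killed MJ2, and 678.3, 1197 and 889.8 with surface proteins. It rose 2.41-fold with surface proteins (adjusted p = 0.0198, past the threshold in 2 of 6 fits without a library), whereas heat-killed MJ2 differed from the negative control by -0.10 ± 0.23 on the log2 scale (adjusted p = 0.845). Akr1b3, an aldose reductase with prostaglandin F synthase activity, fell by 2.09 ± 0.51 on the log2 scale with surface proteins (adjusted p = 0.0257), past the threshold in 2 of 6 fits without a library, with 1 control library at 5426 adjusted reads and the other two at 2044 and 1306. Ptgr1, a reductase that inactivates prostaglandins and leukotriene B4, rose 9.40-fold with surface proteins and 10.8-fold with heat-killed MJ2 (adjusted p = 0.000893 and 0.00114).

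**Figure D5:**
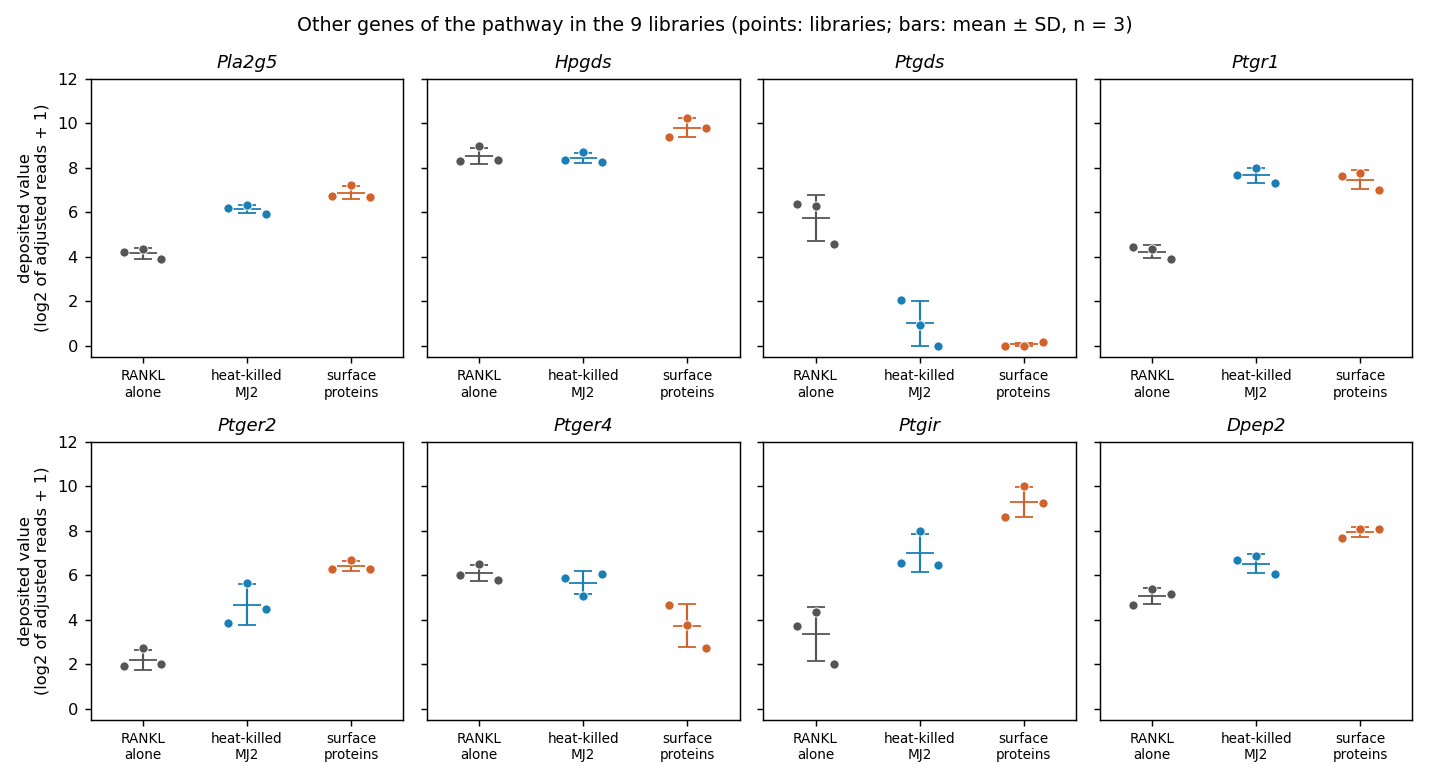
Deposited values (log2 of adjusted reads + 1, vertical axis) of 8 other pathway genes in the 3 libraries of each group (points), with mean and SD (bars, n = 3). Ptgir and Dpep2 climb from RANKL alone to heat-killed MJ2 to surface proteins without overlap, while Ptger4 is lowest with surface proteins and Ptgds is near 0 in both treated groups.

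Among prostanoid receptors, 3 of 5 tested were past the threshold with surface proteins and 2 of 5 with heat-killed MJ2, beside 17.5% and 4.26% of all genes tested, but each of these receptors passed the filter on low values only through the group in which it was high. Ptger2, the EP2 receptor of prostaglandin E2, had 2.72, 5.51 and 2.95 adjusted reads with RANKL alone, 13.3, 49.4 and 21.6 with heat-killed MJ2 and 77.4, 101.0 and 75.5 with surface proteins. Its log2 rise was 4.21 ± 0.26 with surface proteins (adjusted p = 0.000377) and 2.47 ± 0.48 with heat-killed MJ2 (adjusted p = 0.0400). Ptger4, the EP4 receptor of the same ligand, had 63.8, 90.3 and 54.4 adjusted reads with RANKL alone, 57.3, 32.9 and 65.8 with heat-killed MJ2 and 24.4, 12.4 and 5.64 with surface proteins, a fall of 2.39 ± 0.49 on the log2 scale (adjusted p = 0.0157). The call of Ptger4 was lost without surface protein replicate 2 (adjusted p = 0.0526). Ptger2 and Ptger4 thus moved in opposite directions with surface proteins. Ptger1, the EP1 receptor, differed by 0.59 ± 0.26 (adjusted p = 0.134), and Ptger3, the EP3 receptor, did not reach the filter on low values, both named after their values were seen. Ptgir, the prostacyclin receptor, had 12.1, 19.5 and 2.95 adjusted reads with RANKL alone, 92.1, 256.4 and 86.3 with heat-killed MJ2 and 397.4, 1019 and 599.1 with surface proteins, with log2 rises of 5.94 ± 0.66 (adjusted p = 0.00219) and 3.65 ± 0.70 (adjusted p = 0.0392). The calls of Ptger2 and Ptgir with heat-killed MJ2 were lost without any 1 of the 6 libraries, at adjusted p of 0.0508 to 0.112 and 0.0508 to 0.0997.

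Downstream in the leukotriene branch, Dpep2, a dipeptidase that turns leukotriene D4 into leukotriene E4, rose 7.37-fold with surface proteins (adjusted p = 0.000889) and 2.74-fold with heat-killed MJ2 (adjusted p = 0.0393, lost in all 6 fits without a library). Mgst2, a microsomal glutathione transferase that can also make leukotriene C4, fell by 1.13 ± 0.22 on the log2 scale with surface proteins (adjusted p = 0.0131), and was past the threshold in 4 of 6 fits without a library, with -0.971 and -0.979 in the others. Fpr2, the formyl peptide receptor that lipoxin A4 binds, held 1 read in the negative control, against 180 with heat-killed MJ2 and 442 with surface proteins. The ratio of summed reads was 180 (exact 95% counting interval 31.9 to 7149) and 442 (78.9 to 17497), and both rises were past the threshold by limma (adjusted p = 0.000937 and 0.000367). No gene of 5 other lipoxygenases reached the filter on low values. None of 6 kinases and binding partners of cytosolic phospholipase A2 and 5-lipoxygenase was past the threshold, with Mapkapk2 at -0.40 ± 0.14 with surface proteins (adjusted p = 0.0744). None of 5 Hsp90 chaperone partners of Ptges3 was either, although 3 of them met the p limit with surface proteins, where 29.1% of all genes tested did. These were Stip1 at -0.90 ± 0.16 (adjusted p = 0.0105), Ahsa1 at -0.77 ± 0.16 (adjusted p = 0.0169) and Hsp90ab1 at -0.63 ± 0.19 (adjusted p = 0.0474) on the log2 scale, the first pair named after their values were seen.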

How the data were processed

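RNA of RAW 264.7 cells, in 9 libraries, 3 per group, was sequenced from the 3′ end of mRNA, per the labels and the methods of the study. The submitters' processing notes name Bowtie2, bedtools and mm10, without versions. The authors deposited log2 values for 23282 gene rows per library, named by symbol, and their methods name quantile normalization, although sorted columns lay as far as 1.60 log2 units apart. How reads shared between genes and strands were counted is not given in the sources used here. Adjusted reads were computed as 2 raised to the value, minus 1. In every library 100% of low values lay within 0.25 of a whole step, 1 read being worth 0.924 to 1.11 adjusted reads, and a gene at 0 could still be present at up to 3 reads. The 35 symbols on more than 1 row included no member. A 3′ assay does not scale reads with transcript length. Levels were not compared between genes except as ratios within a library, which were read for their shifts between groups.

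The tests were limma 3.58.1 in R 4.3.3 (lmFit and eBayes, two-sided, Benjamini-Hochberg) on the deposited values of the 6 libraries of each comparison, for genes that reached 10 adjusted reads in 3 or more of the 6 (10874, 10814 and 10916 genes). A count model was planned only for raw counts and was not used. Genes past the threshold had an adjusted p under 0.05 together with a 2-fold change or more. The script was tested on simulated data. Named genes were all members, pathway genes past the threshold in at least 1 comparison (or, in a list without any, its tested gene of highest mean) and the 2 genes nearest to each member past the threshold. Members, lists and tests were chosen with earlier results of these data known. Libraries within a group correlated at 0.946 to 0.964 and were no duplicates, with chi-square per degree of freedom of 6.90 to 18.5. The surface proteins and heat-killed MJ2 comparisons share the negative control libraries. Alternatives were another normalization, other constants and filters, other fits, a replicate block and leaving out each library. Positions came from the GENCODE annotation of GRCm38 and upstream sequences from RefSeq (GRCm38.p6). Counting intervals are exact, at 95%.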

Additional observations from a re-analysis of the deposited data

Results flagged for a closer look

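The effects of the 2 treatments against the shared negative control differed past the threshold for 1 of 10 members and 8 of 48 pathway genes tested, by the direct limma comparison of surface proteins with heat-killed MJ2, which is the difference of the 2 effects on the log2 scale. Among the members this was Alox5, at -1.571 ± 0.199 (SE, adjusted p = 0.0098), lower in 3 of 3 surface protein libraries than in any library with heat-killed MJ2. Over all genes tested 10.1% were past the threshold in this comparison, 1098 of 10916, and the count fell to 342 and 424 without heat-killed MJ2 replicates 1 and 3. Among the pathway genes, Ptgir at 2.288, Dagla at 1.912, Ptger2 at 1.743, Pla2g2e at 1.566, Dpep2 at 1.427, Hpgds at 1.367 and Fpr2 at 1.235 were higher with surface proteins, with adjusted p between 0.0167 and 0.0471. Ptger4 was lower, at -1.954 (adjusted p = 0.0489). Alox5 was past the threshold in 6 of 6 fits that left out a library, Dpep2 and Hpgds in 3, Pla2g2e, Dagla and Ptgir in 2, Ptger2 and Ptger4 in 1 and Fpr2 in 0 of 6. Groups of 3 libraries are too small for a test of single libraries that stand apart.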

How the results depend on the processing

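None of the members' fold changes past the threshold changed direction under the alternatives run. With surface proteins against the negative control 148 of 157 member fits kept their side of the threshold, with heat-killed MJ2 148 of 158, and between the treatments 155 of 159. The exceptions were Ptgs1, Ltc4s and Alox5ap. For the 15 pathway genes 200 of 233, 179 of 219 and 171 of 222 fits did. Over all genes 1901, 461 and 1098 were past the threshold in the 3 comparisons. Without the fold limit both comparisons that involve surface proteins rose, to 3163 and 1949, and without the filter on low values heat-killed MJ2 against the negative control became 267. With a replicate block the heat-killed MJ2 count was 289, and Alox5ap was lost (adjusted p = 0.104), as were Lpcat2 in both comparisons with the negative control (adjusted p = 0.0561 and 0.0644), Dpep2 with heat-killed MJ2 (adjusted p = 0.0822), and Dagla and Ptger4 between the treatments (adjusted p = 0.0654 and 0.0757). It changed no other call of a named gene. Deviations of same-numbered libraries correlated weakly, at 0.018 to 0.106, with 1 of 9 pairs over 0.1. Pairs with different numbers were at -0.076 to 0.031, and each library correlated best with its own number in 18 of 18 cases. What same-numbered libraries shared is not given in the sources used here and was not tested. Leaving out each library in turn gave 1490 to 1876, 189 to 334 and 342 to 1167 genes, and 4 to 6 members, 2 members in every fit and 1 member in every fit. Between the treatments the gene count fell to 342 and 424 without replicates 1 and 3 of heat-killed MJ2 and to 612 and 644 without replicates 2 and 3 of surface proteins. With heat-killed MJ2 against the negative control it fell to 189, 261 and 206 without heat-killed MJ2 replicates 1, 2 and 3 and to 292 without negative control replicate 3. Requiring 10 adjusted reads in every library left 7 and 8 members tested in the first 2 comparisons, of which 3 and 1 were past the threshold, because Ptgs2, Ptges or Ptgs1 no longer entered. Between the treatments 2 members were past it with quantile normalization, a constant of 5 before the log, all 9 libraries in 1 fit or a mean-variance trend, when Ptgs1 joined Alox5 (adjusted p = 0.0354 to 0.0498), and 2 without the fold limit, when Alox5ap did. With a mean-variance trend Ltc4s was past the threshold with heat-killed MJ2 (adjusted p = 0.0155). Other scalings left the median of all genes within 0.068 of 0, but between the treatments equal totals took the share of calls that were higher from 50.5% to 41.3%. Depth limits Ptgs2, Ptges, Ptgds and Fpr2, whose low groups held few reads.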
